A study of Mus musculus with 13 samples.

Results

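The Myc, Max and Mxd network is a set of basic helix-loop-helix leucine zipper transcription factors. The 10 genes Myc, Mycn, Mycl, Max, Mxd1, Mxd3, Mxd4, Mxi1, Mnt and Mlx were taken by symbol from a table of 21100 genes. All 10 had a value in every tumor, and all 10 were among the 14390 genes tested. RNA sequencing of poly(A) RNA was performed on 13 mouse basal cell carcinomas (BCC), with 1 library per tumor. The genetically engineered GEM-BCC tumors (n = 9, from 7 mice) arose in the dermis of female Ptch1+/- K14-CreERT2 p53fl/fl mice, which had received 3 intraperitoneal injections of 300 µg tamoxifen and 4 Gy of X-ray. In these mice the K14 promoter drives Cre in basal keratinocytes, where p53 is then deleted. The transplantable Tp-BCC tumors (n = 4, from 4 mice) grew under the skin of the right flank after inoculation of 2000000 tumor cells into Ptch1+/- p53fl/fl mice. Those hosts carry no Cre. The Ptch1+/- and p53fl/fl alleles are thus shared by all animals, and ages were not analysed here. All Tp-BCC tumors descend from a single GEM-BCC tumor, so they are 4 tumors of 1 line. Tumors GEM2 and GEM3 shared a mouse, as did GEM7 and GEM8.

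Myc, Mycn and Mycl activate transcription as dimers with Max, which bind the E-box, a short DNA element. The Mxd proteins (Mxd1, Mxi1, Mxd3 and Mxd4) and Mnt compete for Max and for the same element, and their dimers with Max recruit Sin3 and histone deacetylases and repress. Mlx pairs with the glucose-responsive Mondo factors and with some Mxd proteins and Mnt. In skin, Myc is known from dividing keratinocytes and progenitors, Mxd1 from cells that leave the cycle and differentiate, and Mxd3 from S phase. Mycn is a known target of Hedgehog signalling, which BCC depend on.

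The element that the network binds is also present beside some of its own genes. The E-box CACGTG, which reads the same on both strands, was searched in RefSeq promoters (build GRCm38.p6) that run from 250 bases before to 50 bases after a gene's start. Promoters were found for 9 of the 10 genes, Myc being the exception, and 4 of the 9 held 1 copy each. The copies are shown with 12 bases on either side, 5′ to 3′ on the gene's strand, with the E-box in capitals.
Max (chr12:76962234-76962263, minus strand): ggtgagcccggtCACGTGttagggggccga
Mlx (chr11:101087238-101087267, plus strand): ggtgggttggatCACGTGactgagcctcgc
Mnt (chr11:74830789-74830818, plus strand): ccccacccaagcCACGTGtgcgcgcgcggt
Mxd4 (chr5:34187912-34187941, minus strand): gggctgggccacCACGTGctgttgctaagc
The Max E-box began 3 bases before the start, that of Mlx 40 bases, that of Mnt 123 bases and that of Mxd4 219 bases before it. These letters were not in the windows of Mycn, Mycl, Mxd1 or Mxd3, or in any of the 3 windows of Mxi1. Over all 32851 promoters of this length, 7.15% held CACGTG, and 11.4% of the 11441 tested genes with a promoter did. The variant CACGCG, searched on both strands, was found once among the network's promoters, in that of Mycl, and in 9.27% of all promoters. By gene, 1 of the 9 held the variant, against 19.1% of the 11441 tested genes with a promoter.

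The GEM-BCC libraries held 28075317 to 32629102 counts each and the Tp-BCC libraries 15388027 to 17494912. GEM-BCC libraries are labelled as batch 1 and Tp-BCC libraries as batch 2, so batch, tumor site and model cannot be told apart. Expression followed transcript GC content in the Tp-BCC libraries, upward in a pair of them and downward in the others. The Spearman correlation across 14284 genes, which are not independent replicates, was 0.592 in TP2 and 0.589 in TP4, and -0.390 in TP1 and -0.472 in TP3. In GEM-BCC it was 0.363 in GEM1 and -0.311 to -0.149 in the other libraries. The fold changes of the network genes are therefore also given after removal of this trend from every library. The basal keratinocyte markers Krt5 (at least 62241 counts) and Krt14 (at least 15336) and the Hedgehog target Gli1 (at least 11305) were high in every tumor. Of 10 basal keratinocyte and BCC markers, Krt15 fell in Tp-BCC (log2 fold change -4.03 ± 0.56 SE, adjusted p = 2.08e-04 by edgeR), the Hedgehog factor Gli2 rose (log2 1.28 ± 0.26, adjusted p = 0.00313, edgeR) and 8 did not pass. In tumor tissue, fewer cells of a type and less RNA per cell cannot be told apart.

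Of the 10 network genes, Myc and Mxd3 rose in Tp-BCC and Mxd1 fell. Genes were compared with edgeR's quasi-likelihood test, and a gene rose or fell when its p, adjusted over all tested genes by the Benjamini-Hochberg method, was under 0.05. By this rule 3 of 10 network genes passed, while 19.4% of all tested genes did. For the higher direction it was 2 of 10 against 11.1% of all genes, and for the lower 1 of 10 against 8.35%. None of the 10 also had an absolute log2 fold change above 2, the study's threshold, which with the adjusted p held for 5.57% of genes. The study applied it to DESeq2 fold changes after shrinkage, and here it was applied to edgeR fold changes without that shrinkage. Levels are given as CPM, counts scaled to a library of 1000000. They did not overlap between the models for 1 of the 10, Myc, and for 9.95% of all genes. With the GC trend removed 4 of 10 passed, Mycl being added, while 28.6% of all genes passed.

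**Figure D1:**
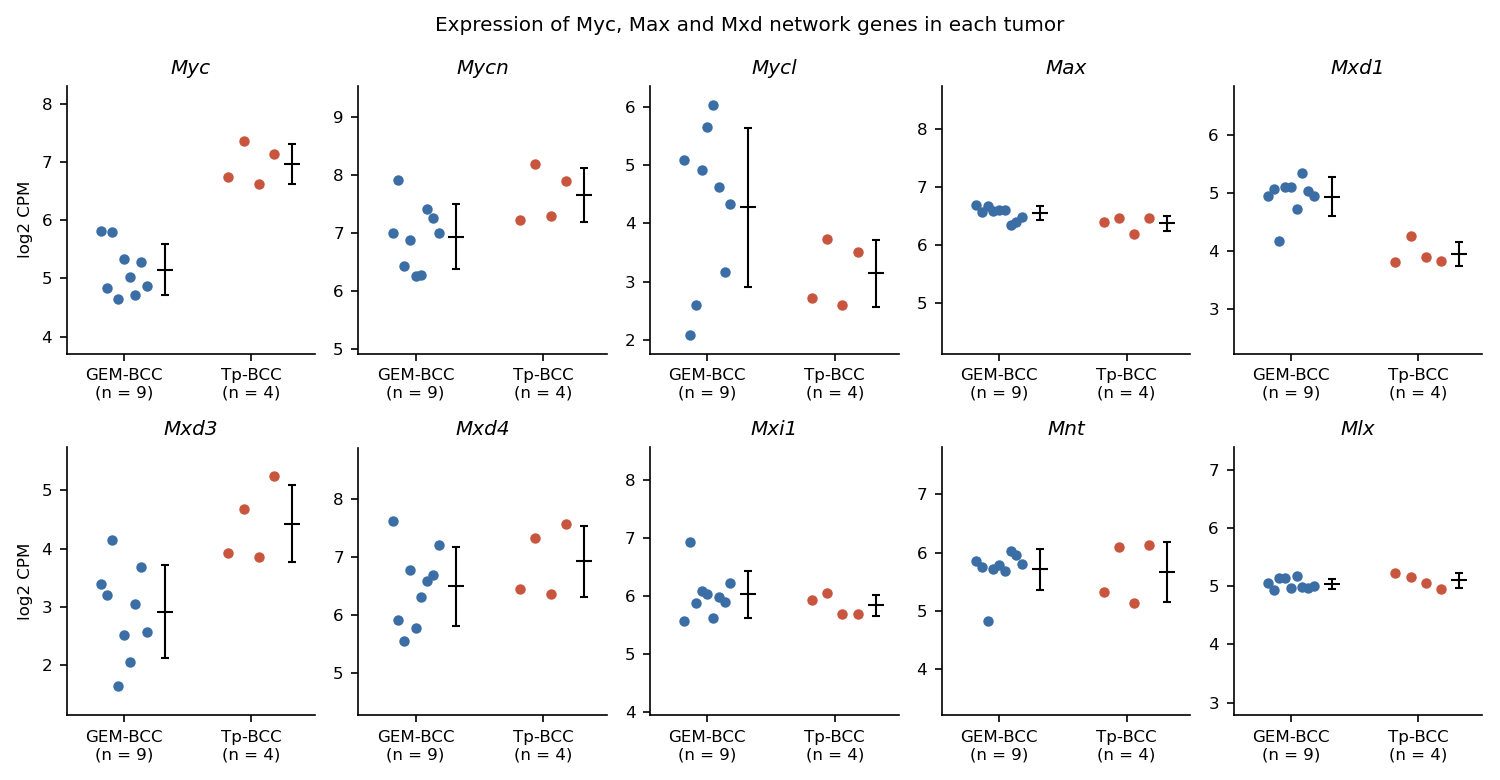
Log2 CPM of the 10 network genes in each of the 9 GEM-BCC (blue) and 4 Tp-BCC (red) tumors, 1 point per tumor, with the mean and SD in black. Every panel spans the same log2 range. The 4 Tp-BCC points lie above all 9 GEM-BCC points for Myc only, the Mxd1 points of Tp-BCC lie below those of 8 GEM-BCC tumors, and Max and Mlx vary least.

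Among the activators, Myc, the founding member, showed the clearest difference. Myc reached 107, 165, 98.7 and 141 CPM in TP1, TP2, TP3 and TP4, and ranged from 25.05 to 56.1 CPM in GEM-BCC with a median of 32.3. The lowest Tp-BCC tumor thus stood above the highest GEM-BCC tumor, and GEM1 and GEM3 were the highest of the latter. The fold change was 3.47 (log2 1.79 ± 0.24 SE, adjusted p = 1.48e-04, edgeR). It was log2 1.56 ± 0.19 with the GC trend removed (adjusted p = 7.47e-05, edgeR). Without any 1 tumor the log2 fold change stayed between 1.62 and 1.90. The 10 tested genes nearest to Myc, 5 on each side on chromosome 15, had a median log2 fold change of 0.18. None of them passed with edgeR, 3 had an unadjusted p under 0.05, and 2 passed by DESeq2.

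Mycn, the Hedgehog-responsive family member, had 150 and 156 CPM in TP1 and TP3 and 291 and 237 CPM in TP2 and TP4. In GEM-BCC it ranged from 76.9 to 240 CPM with a median of 128. The models overlapped, as GEM2 was above TP1, TP3 and TP4, GEM7 above TP1 and TP3, and GEM8 above TP1. The log2 fold change of 0.67 ± 0.29 SE did not pass (adjusted p = 0.120, edgeR), and 2 SE on either side reach from 0.08 to 1.26. With the GC trend removed it was 0.47. Leaving out GEM2, the highest GEM-BCC tumor, brought Mycn past the threshold at log2 0.83 (adjusted p = 0.0441, edgeR).

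Mycl, the third family member, varied most. Its levels in Tp-BCC were 6.47, 13.2, 5.98 and 11.3 CPM, and in GEM-BCC they ran from 4.18 to 65.6 CPM with a median of 24.6. GEM2, GEM3 and GEM8 were as low as Tp-BCC tumors, and the other 6 GEM-BCC tumors were above all of them. The log2 fold change was -1.55 ± 0.63 SE (adjusted p = 0.0972, edgeR), which did not pass. Mycl passed at log2 -1.84 with the GC trend removed (adjusted p = 0.0404, edgeR), with counts summed per mouse (log2 -1.77, adjusted p = 0.0428, edgeR) and by DESeq2 (log2 -1.58, adjusted p = 0.0272). Its SD among GEM-BCC tumors was 1.37 on the log2 scale, and 4.34% of tested genes had a larger one, the median over all genes being 0.44.

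The make-up of the Myc family was followed by its level per kb of transcript, the scale on which genes can be compared. Mycn was the most abundant in GEM-BCC, with 50.3 ± 20.1 CPM per kb (SD, n = 9), followed by Myc with 20.6 ± 6.64 and Mycl with 8.22 ± 6.30. In Tp-BCC Mycn had 80.1 ± 26.1 CPM per kb (SD, n = 4), Myc 71.4 ± 17.1 and Mycl 2.81 ± 1.09. Mycn and Myc in Tp-BCC differed by less than the spread between tumors. The 3 genes summed to 79.2 ± 14.9 CPM per kb in GEM-BCC (66.1 to 109) and to 154 ± 44.2 in Tp-BCC (117 to 208). Myc made up 26.9 ± 10.1% of that sum in GEM-BCC and 46.7 ± 2.52% in Tp-BCC. GEM3, at 46.9%, was inside the Tp-BCC range of 44.2 to 50.1%. Mycl held 11.2 ± 9.50% in GEM-BCC, where its share ranged from 1.16 to 29.5%, and 1.78 ± 0.21% in Tp-BCC. The shares are descriptive and were not tested.

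**Figure D2:**
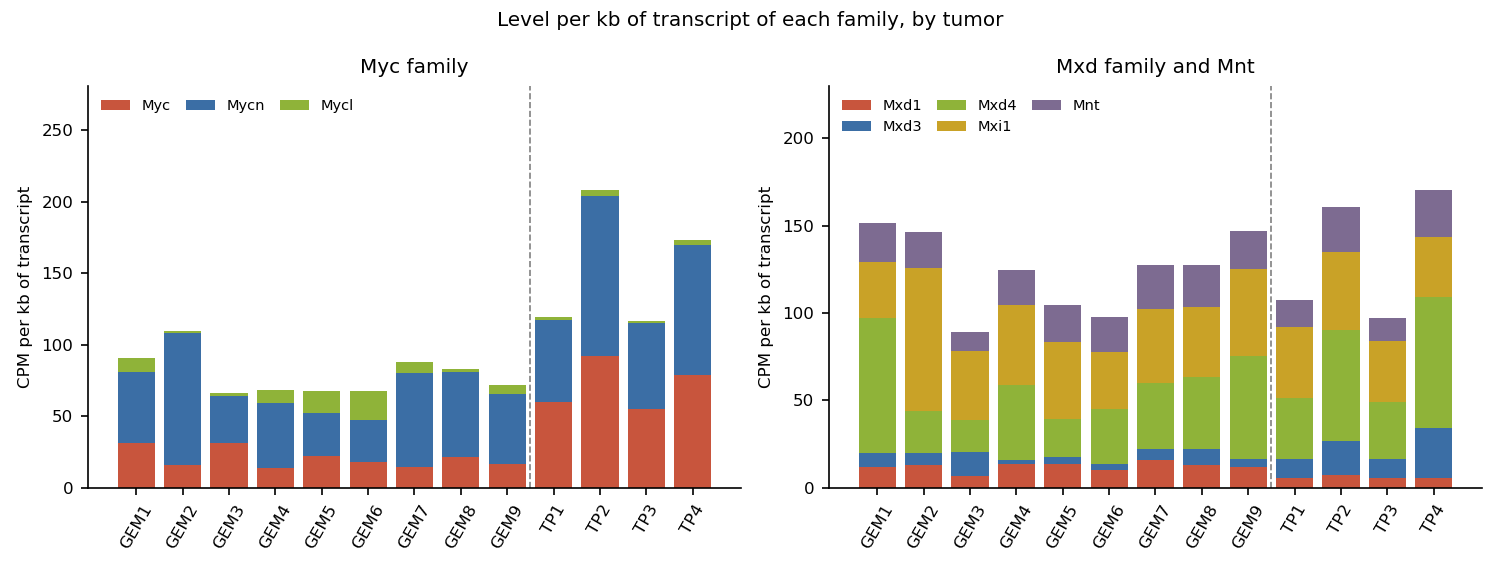
Level in CPM per kb of transcript of the Myc family (left) and of the Mxd family with Mnt (right) in each tumor, stacked by gene from 0, with GEM-BCC tumors left of the dashed line and Tp-BCC tumors right of it. The Myc family total is 117 or more in every Tp-BCC tumor and 109 or less in every GEM-BCC tumor, while the totals on the right overlap.

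Max, the obligate partner of all 3, was nearly even. It had 83.7, 88.1, 72.6 and 88.1 CPM in the Tp-BCC tumors and 81.4 to 103 CPM in GEM-BCC, with a median of 95.3. The log2 fold change of -0.17 ± 0.15 SE did not pass (adjusted p = 0.440, edgeR), and 2 SE on either side reach from -0.48 to 0.13. With the GC trend removed it was 0.04, the other way. Mlx, the partner of the Mondo factors, had 37.6, 35.7, 33.3 and 30.8 CPM in Tp-BCC and 30.6 to 36.0 CPM in GEM-BCC, with a median of 31.9. Its log2 fold change was 0.06 ± 0.15 SE (adjusted p = 0.814, edgeR), with 2 SE reaching from -0.25 to 0.37, and 0.23 with the GC trend removed. The SD of log2 CPM among GEM-BCC tumors was 0.12 for Max and 0.09 for Mlx, and 99.7% and 99.9% of tested genes had a larger SD.

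Among the repressors, Mxd1, which is induced as keratinocytes differentiate, fell. It had 13.9, 19.1, 14.8 and 14.2 CPM in Tp-BCC and 17.96 to 40.2 CPM in GEM-BCC, with a median of 32.8. The models overlapped through GEM3 alone, at 17.96 CPM, below TP2. The fold change was 2.01-fold lower in Tp-BCC (log2 -1.01 ± 0.22 SE, adjusted p = 0.00594, edgeR), and log2 -0.98 ± 0.19 with the GC trend removed (adjusted p = 0.00184, edgeR). Without any 1 tumor it stayed between -1.15 and -0.95. Of its 10 nearest tested genes on chromosome 6, 2 fell and none rose, with a median log2 fold change of -0.43.

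Mxd3, the S phase member of the family, rose. It had 15.01, 25.6, 14.4 and 37.7 CPM in Tp-BCC and 3.03 to 17.5 CPM in GEM-BCC, with a median of 8.21. GEM3, the highest GEM-BCC tumor, was above TP1 and TP3, and the other 8 GEM-BCC tumors were below all Tp-BCC tumors. The fold change was 2.73 (log2 1.45 ± 0.40 SE, adjusted p = 0.0204, edgeR), and log2 1.09 ± 0.35 with the GC trend removed (adjusted p = 0.0310, edgeR). It was no longer past the threshold without TP4 (log2 1.06, adjusted p = 0.111, edgeR) or without TP2 (log2 1.37, adjusted p = 0.0610, edgeR). With both left out, the log2 fold change was 0.79 (adjusted p = 0.318, edgeR).

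The remaining repressors did not pass. Mxd4 had 86.8, 160, 82.1 and 189 CPM in Tp-BCC and 46.8 to 195 CPM in GEM-BCC (log2 fold change 0.38 ± 0.35 SE, adjusted p = 0.465, edgeR). Mxi1, also called Mxd2, had 60.9, 66.3, 51.4 and 51.6 CPM in Tp-BCC and 47.7 to 122 CPM in GEM-BCC (log2 -0.23 ± 0.23, adjusted p = 0.506, edgeR). Mnt, the most widely expressed repressor, had 39.9, 68.5, 34.9 and 69.5 CPM in Tp-BCC and 28.3 to 65.2 CPM in GEM-BCC (log2 -0.01 ± 0.24, adjusted p = 0.983, edgeR). For Mnt, 2 SE on either side reach from -0.49 to 0.47. With the GC trend removed, the log2 fold changes of Mxd4, Mxi1 and Mnt were 0.03, -0.27 and -0.36, and none passed. GEM2 was highest for Mxi1, and GEM3 was lowest for Mnt and for Mxd4.

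Summed per kb, the Mxd family with Mnt had 124 ± 22.6 CPM per kb in GEM-BCC and 134 ± 37.0 in Tp-BCC, a difference smaller than the spread between tumors. Within that sum Mxd1 took 9.99 ± 1.87% in GEM-BCC and 4.77 ± 1.14% in Tp-BCC, with no overlap. The share of Mxd3 was 5.45 ± 3.86% and 12.6 ± 2.78%, respectively. Mxd4 and Mxi1 together held the larger part in both models, with 30.9 ± 10.8% and 36.9 ± 9.67% in GEM-BCC and 37.3 ± 5.51% and 30.3 ± 8.02% in Tp-BCC. Over all 10 genes, Mycn (50.3), Max (48.6), Mxi1 (45.3) and Mxd4 (39.4 CPM per kb) led in GEM-BCC, and each differed from the next in this order by less than the larger of their SDs. Myc (20.6), Mnt (20.5) and Mlx (18.5 CPM per kb) formed a middle group. Mxd1 (12.3), Mycl (8.22) and Mxd3 (6.41 CPM per kb) were lowest. In Tp-BCC, Myc stood second in this order after Mycn, and Mxd3, at 17.5 ± 8.26 CPM per kb, was level with Mlx (19.3 ± 1.65) and Mnt (20.4 ± 7.05).

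**Figure D3:**
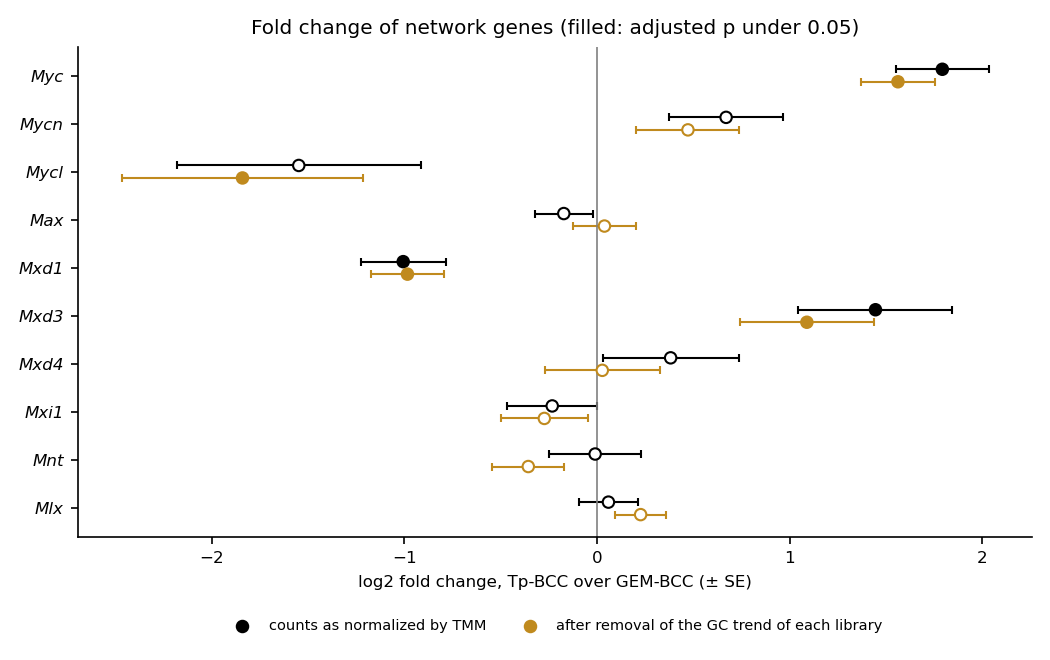
Log2 fold change (Tp-BCC over GEM-BCC) of each network gene with its SE, with TMM normalization (black) and after the GC trend of each library was removed (ochre). Filled points passed an adjusted p under 0.05: Myc, Mxd1 and Mxd3 in both series, and Mycl at -1.84 after removal of the trend only.

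The Tp-BCC tumors differed among themselves in a shared way. TP2 and TP4 were both above TP1 and TP3 for 7 of the 10 genes (Myc, Mycn, Mycl, Max, Mxd3, Mxd4 and Mnt), an order that 43.6% of all tested genes had. Once the GC trend was removed, 7 of the 10 had it, against 37.3% of all genes. They were not the same 7: Myc and Mnt no longer had this order, and Mxd1 and Mlx now did. These transcripts have a GC content of 49.6% (Max) to 59.9% (Mnt). The SD among Tp-BCC tumors was smaller for 8 of the 10 once the trend was removed. For Mxd4 it went from 0.61 to 0.11 and for Mnt from 0.52 to 0.14 on the log2 scale. It became larger for Max, from 0.13 to 0.40, and for Mlx, from 0.12 to 0.21, the 2 transcripts of lowest GC content.

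Among GEM-BCC tumors the network genes could be compared with each other in 7 mice, after averaging the tumors of a mouse. None of the 45 pairs passed adjustment. By Pearson's r the closest were Mxd1 and Mnt, with r = 0.811 (exact permutation p = 0.0145, adjusted p = 0.652) and Spearman's rho = 0.679 (exact p = 0.110, adjusted p = 0.833). Without the 2 mice farthest from the median of Mxd1, r was 0.269, so this relation rests on those mice. Mycn and Mycl had r = -0.793 (exact permutation p = 0.0321, adjusted p = 0.723) and rho = -0.821 (exact p = 0.0341, adjusted p = 0.768), and r = -0.599 without the 2 mice farthest from the median of Mycn. Myc and Max had r = 0.579 (exact permutation p = 0.179, adjusted p = 0.851) and rho = 0.821 (exact p = 0.0341, adjusted p = 0.768), with r = 0.657 without 2 mice. By rho, these last 2 pairs were closer than Mxd1 and Mnt.

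The genes whose log2 CPM followed a network gene most closely over the 9 GEM-BCC tumors were sought among 10209 genes, as a description. Being the highest of so many, these r are high by selection, and the 9 tumors come from 7 mice. For Myc they were Smarcd3 (r = 0.979), a subunit of the BAF chromatin remodeler, Ppp1cc (0.970), a catalytic subunit of protein phosphatase 1, and Cotl1 (0.967), an actin-binding protein. For Mycn they were B4galnt4 (0.963), Plppr3 (0.963) and Pcx (0.945), pyruvate carboxylase. For Mxd1 they were Fbrsl1 (0.987), Tmem201 (0.966) and Mllt6 (0.961). For Mxd3 they were Tuba1b (0.954), an alpha tubulin, Haus4 (0.944), a subunit of the augmin complex of the spindle, and Ing2 (0.935), a chromatin reader. With the GC trend removed, r was 0.867 to 0.974 for these 12 genes. Of the 12, Cotl1, Pcx and Tuba1b rose in Tp-BCC, with log2 fold changes of 1.15, 1.03 and 1.52 (adjusted p = 0.0179, 0.0324 and 8.75e-04, edgeR).

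Proliferation genes, which encode factors of S and M phase, were higher in Tp-BCC. Of 26, 18 rose and none fell, while 11.1% of all tested genes rose and 8.35% fell. The median log2 fold change of the 26 was 1.13, against -0.03 over all genes. Among the 8 that did not pass were Mki67 (log2 0.70, adjusted p = 0.414, edgeR) and Top2a (log2 0.33, adjusted p = 0.707, edgeR). The ubiquitin-conjugating enzyme Ube2c of the anaphase-promoting complex rose from 38.9 ± 16.9 to 156 ± 36.6 CPM (log2 fold change 2.00 ± 0.30 SE, adjusted p = 4.06e-04, edgeR). Cyclin E2 (Ccne2) rose from 4.05 ± 1.67 to 18.5 ± 12.5 CPM (log2 2.19 ± 0.44, adjusted p = 0.00312, edgeR). Without TP2 and TP4, 11 of the 26 passed, against 1484 of all 14305 genes tested in that setting. Epidermal differentiation genes went the other way, with 6 of 14 tested lower and none higher, and a median of -2.70. The counts were 7 lower and 1 higher with the GC trend removed, against 1926 lower and 2187 higher of all 14390 tested genes. Klk7, a protease of the cornified layer, had 2 to 5726 counts in GEM-BCC and at most 1 in Tp-BCC, which makes it at least 283-fold lower when 3 counts are set in each Tp-BCC library. Sprr1a, a precursor of the cornified envelope, fell from 32.1 ± 45.4 to 0.777 ± 0.313 CPM (log2 -5.37 ± 1.43, adjusted p = 0.0174, edgeR). Both overlapped between the models.

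The levels of 5 network genes were set beside these 2 lists and the ribosome biogenesis targets described below over the 7 GEM-BCC mice, in 6 relations, with the mean log2 CPM of a list as its score. None passed adjustment. Mxd3 and the proliferation score had r = 0.668 (exact permutation p = 0.0885, adjusted p = 0.232) and rho = 0.786 (exact p = 0.0480, adjusted p = 0.144), and r was 0.897 without the 2 mice farthest from the median of Mxd3. Mycl and the proliferation score had r = -0.740 (exact permutation p = 0.0651, adjusted p = 0.232) and rho = -0.857 (exact p = 0.0238, adjusted p = 0.143), with r = -0.852 without 2 mice. Mxd1 and the differentiation score had r = 0.544 (exact permutation p = 0.214, adjusted p = 0.285) and rho = 0.571 (exact p = 0.200, adjusted p = 0.354), and r = 0.273 without 2 mice. Mycl and the differentiation score had r = 0.639 (exact permutation p = 0.116, adjusted p = 0.232) and rho = 0.536 (exact p = 0.236, adjusted p = 0.354), and r = 0.244 without 2 mice. Myc and the ribosome biogenesis score had r = -0.223 (exact permutation p = 0.640, also after adjustment) and rho = -0.357 (exact p = 0.444, adjusted p = 0.533), with r = -0.147 without 2 mice. Mycn and that score had r = 0.532 (exact permutation p = 0.237, adjusted p = 0.285) and rho = 0.286 (exact p = 0.556, also after adjustment), with r = 0.235 without 2 mice. All GEM-BCC libraries are of 1 batch, and 4 Tp-BCC tumors are too few for a correlation.

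**Figure D4:**
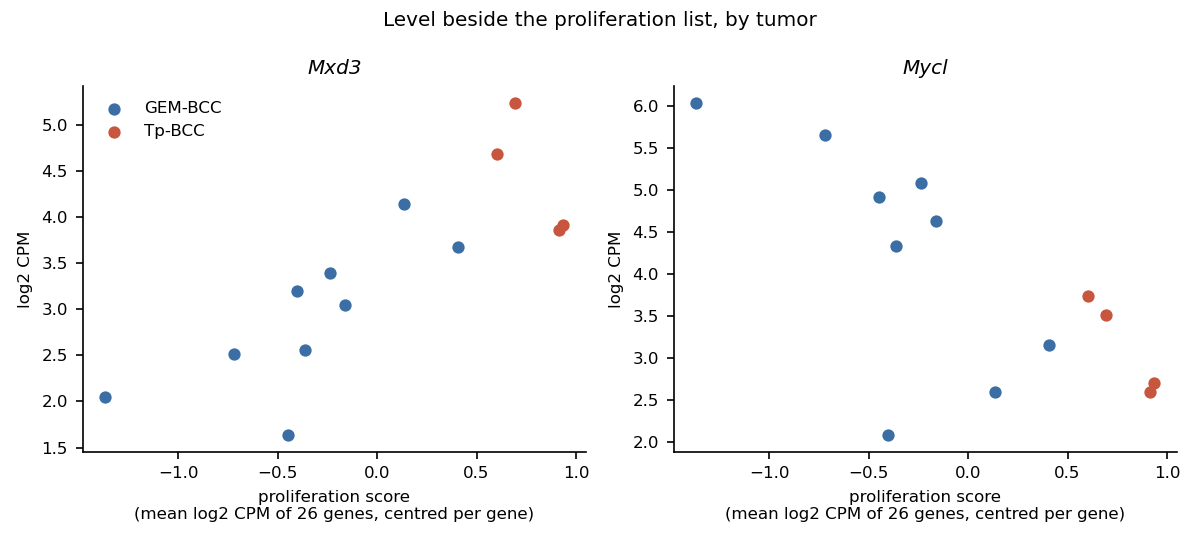
Log2 CPM of Mxd3 (left) and Mycl (right) against the mean log2 CPM of 26 proliferation genes, centred per gene, with 1 point per tumor (blue, 9 GEM-BCC; red, 4 Tp-BCC). Among GEM-BCC tumors Mxd3 tends upward and Mycl downward, and all Tp-BCC tumors lie to the right of all GEM-BCC tumors.

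The genes around the network were taken from lists of its cofactors, regulators and targets. The counts of these lists are to be read against the 11.1% of all tested genes that rose and the 8.35% that fell. Their medians are to be read against -0.03 over all genes. With the GC trend removed, 2187 of 14390 genes rose and 1926 fell. Of 3 further partners of Max and Mlx, namely Mga, Mlxip and Mlxipl, none passed with edgeR or DESeq2, and 0 had an unadjusted p under 0.05. Mga, which pairs with Max, had 29.9 to 85.7 CPM in GEM-BCC and 4.50 to 78.5 CPM in Tp-BCC (log2 fold change -0.65 ± 0.61 SE, adjusted p = 0.474, edgeR). Over the alternative settings the log2 fold change of Mga ran from -3.69 to 0.26, and Mga passed without TP1 and TP3. Mlxip, also called MondoA, had log2 0.17 ± 0.31 (adjusted p = 0.719, edgeR). Of 10 Myc cofactors, 4 rose and none fell (median log2 fold change 0.47). Hcfc1, host cell factor, rose from 209 ± 99.7 to 512 ± 199 CPM (log2 1.29 ± 0.35, adjusted p = 0.0184, edgeR). Skp2, an F-box protein that binds Myc, went from 18.1 ± 6.16 to 40.2 ± 24.4 CPM (log2 1.15 ± 0.36, adjusted p = 0.0349, edgeR), and Ruvbl2, an ATPase of chromatin complexes, also rose. Skp2 no longer passed in 10 of 26 alternative settings. Its log2 fold change was 0.87 without TP1, and 0.10 in the setting where it was lowest. When TP2 or TP4 was left out, 1 of the 10 cofactors passed. After removal of the GC trend 5 rose and 1 fell.

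None of the 11 genes of the Sin3 and histone deacetylase corepressors passed with edgeR, 3 had an unadjusted p under 0.05, and 2 passed by DESeq2. Without TP1 or without TP3, 1 passed. The median was -0.13. The histone-binding Rbbp4 had log2 -0.32 ± 0.19 (adjusted p = 0.249, edgeR). Among 13 genes that set the stability of Myc protein, 3 rose and none fell (median 0.41), and with the GC trend removed 2 rose and 1 fell. Aurka, known to stabilise N-Myc, rose from 15.4 ± 4.50 to 57.7 ± 11.9 CPM (log2 1.91 ± 0.26, adjusted p = 1.48e-04, edgeR), and Plk1 from 35.7 ± 16.4 to 172 ± 72.8 CPM (log2 2.27 ± 0.35, adjusted p = 4.98e-04, edgeR). Both are also genes of mitosis. Fbxw7, the ubiquitin ligase subunit that targets Myc for degradation, had log2 -0.81 and did not pass (adjusted p = 0.111, edgeR), a gene named after its value was seen. Fbxw7 was the 1 that fell with the GC trend removed (log2 -0.53, adjusted p = 0.0440, edgeR).

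Textbook targets that Myc activates were grouped in 3 lists, to be read against the 11.1% of all genes that rose and the 8.35% that fell. With the GC trend removed, the background is 2187 of 14390 genes that rose and 1926 that fell. Of 27 ribosome biogenesis genes 11 rose and none fell (median log2 fold change 0.52). The nucleolar methyltransferase fibrillarin (Fbl) rose from 107 ± 15.9 to 258 ± 81.4 CPM (log2 1.27 ± 0.20, adjusted p = 4.94e-04, edgeR) without overlap, and Noc4l, a small subunit processing factor, from 39.3 ± 6.16 to 85.8 ± 37.8 CPM (log2 1.12 ± 0.23, adjusted p = 0.00380, edgeR). The count was 6 with counts summed per mouse, 3 without TP2 and TP4, and 18 without TP1 and TP3. Over all genes, 2615 of 14425, 1484 of 14305 and 6119 of 14275 passed in these settings, respectively. The ribosome biogenesis count was 5 to 7 when any of GEM4, GEM5, GEM6, GEM7, GEM9, TP2 or TP4 was left out. Of 25 metabolic targets 4 rose and none fell (median 0.35), and 1 passed without TP2. Once the GC trend was removed, 6 rose and 2 fell, the hexokinase gene Hk2 and the transferrin receptor gene Tfrc. Shmt2, which makes glycine from serine in mitochondria, rose from 69.4 ± 19.9 to 171 ± 68.9 CPM (log2 1.297 ± 0.26, adjusted p = 0.00309, edgeR), and the glutamine transporter Slc1a5 from 66.8 ± 14.4 to 124 ± 39.4 CPM (log2 0.89 ± 0.22, adjusted p = 0.0110, edgeR). Of 20 targets in growth and translation 5 rose and none fell (median 0.41), and 3 passed without GEM4, GEM5, GEM7, TP2 or TP4. After removal of the GC trend 8 rose and 1 fell. The cyclin-dependent kinase gene Cdk4 rose from 315 ± 55.1 to 666 ± 216 CPM (log2 1.08 ± 0.21, adjusted p = 0.00248, edgeR) without overlap. Bcat1, an aminotransferase of branched-chain amino acids, rose from 7.11 ± 3.67 to 15.3 ± 2.50 CPM (log2 1.10 ± 0.34, adjusted p = 0.0340, edgeR). Bcat1 no longer passed in 14 of 26 alternative settings, and its adjusted p by edgeR reached 0.0892 with 1 tumor left out.

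Of 13 genes known as repressed by Myc, 1 fell and 3 rose (median log2 fold change -0.06). After removal of the GC trend 3 fell, Cdkn1a, Cdkn2b and Cebpa, and 3 rose, and the median was 0.16. Cdkn1a, the inhibitor p21 and also a p53 target, fell from 61.1 ± 26.2 to 20.8 ± 9.43 CPM (log2 -1.56 ± 0.37, adjusted p = 0.0101, edgeR). Klf4, a factor of epidermal differentiation, rose from 63.3 ± 11.6 to 187 ± 41.5 CPM (log2 1.57 ± 0.19, adjusted p = 5.72e-05, edgeR). Cdkn2c, the inhibitor p18, rose from 25.3 ± 5.09 to 54.3 ± 11.3 CPM (log2 1.10 ± 0.20, adjusted p = 0.00177, edgeR), and none of these 3 overlapped between the models. The third to rise was Gas1. None of the 8 tested genes of Mlx and its Mondo partners passed with edgeR (median -0.03), 2 had an unadjusted p under 0.05, and 1 passed by DESeq2. Txnip, their best known target, had log2 -0.04 ± 0.27 (adjusted p = 0.932, edgeR), and Fasn, fatty acid synthase, log2 0.49 ± 0.31 (adjusted p = 0.282, edgeR).

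**Figure D5:**
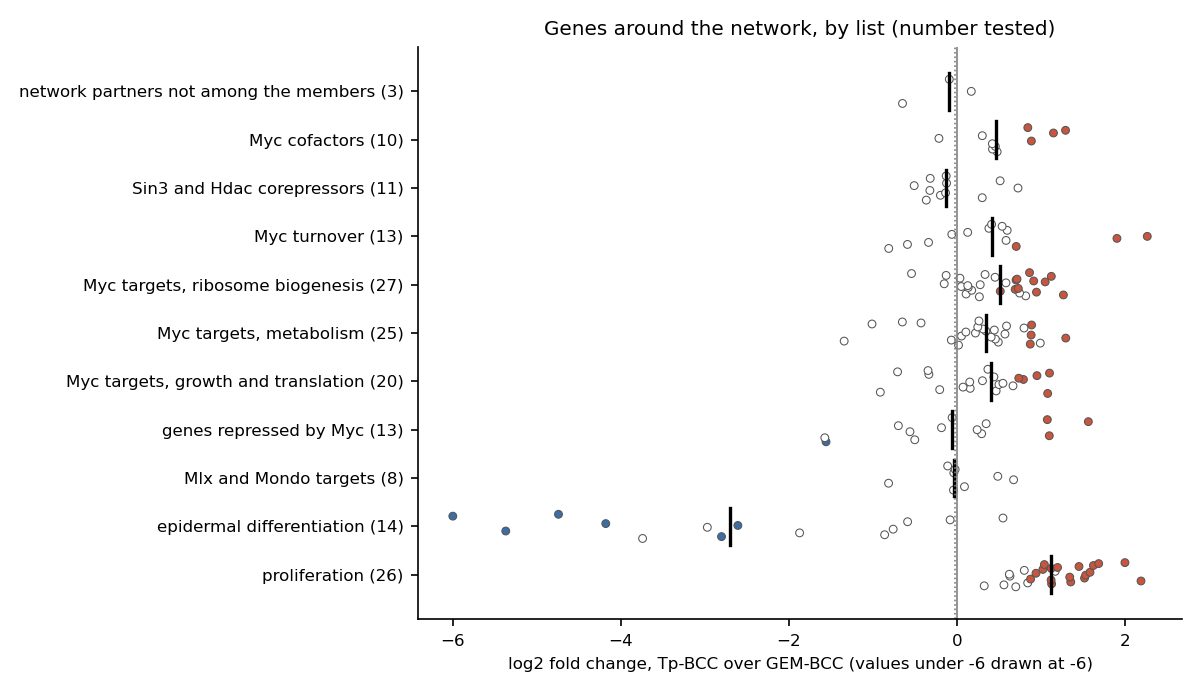
Log2 fold change (Tp-BCC over GEM-BCC) of each tested gene of 11 lists, with the list median as a black bar and the median of all genes, -0.03, as a dotted line. Red points rose and blue points fell at an adjusted p under 0.05, and white points did not pass. Red points are most frequent among proliferation genes (18 of 26), and blue ones among epidermal differentiation genes (6 of 14).

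Genes with and without an E-box in the promoter were compared as a description, with no test. Of 1301 tested genes with CACGTG in the promoter window 10.5% rose and 8.15% fell, and of 10140 genes without it 10.8% rose and 7.89% fell. The median log2 fold changes were -0.003 and -0.03. With the GC trend removed, 14.9% and 13.8% of the genes with the element rose and fell, against 14.99% and 13.1% of those without.

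Markers of other cell types also differed between the models, and their part in the values above was not tested. Marker counts are to be read against the 11.1% of all tested genes that rose and the 8.35% that fell. Of 6 endothelial markers 4 rose, and their summed level was 87.9 to 219 CPM in GEM-BCC and 308 to 382 CPM in Tp-BCC. Of 4 tested adipocyte markers 3 rose, with sums of 8.13 to 22.0 and 20.8 to 95.5 CPM. Of 7 tested hair follicle markers 4 fell, with sums of 375 to 1116 and 653 to 1007 CPM, and in Tp-BCC Krt75 and Msx2 had at most 3 and 2 counts. The largest part of these sums was Lhx2, which did not pass, with 624 ± 247 CPM in GEM-BCC and 779 ± 187 CPM in Tp-BCC (SD). Of 8 macrophage markers 1 rose (sums of 76.0 to 387 and 195 to 395 CPM), and of 7 fibroblast markers 1 rose and 1 fell (12237 to 49333 and 16094 to 28481 CPM). Skeletal muscle markers summed to 1.68 to 5.91 CPM in GEM-BCC and 1.53 to 126 CPM in Tp-BCC, and none of the 3 tested passed (0 of 3 by edgeR, 2 with an unadjusted p under 0.05). Of 3 tested neutrophil markers, S100a8 and S100a9 fell, with at most 2 and 3 counts in Tp-BCC (adjusted p = 0.0313 and 0.0415, edgeR), and neither passed with the GC trend removed. T cell markers summed to at most 15.9 CPM, B cell markers to at most 1.23 CPM, melanocyte markers to at most 2.29 CPM and neutrophil markers to at most 8.30 CPM in any tumor. The defining B cell marker Ms4a1 and the melanocyte marker Tyr had at most 6 and 0 counts in GEM-BCC.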

How the data were processed

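Poly(A) RNA of 13 tumors was sequenced. Per the labels and the methods, the authors aligned reads with Bowtie2 (2.3.4.3) to mouse transcripts of GRCm39 and quantified them with RSEM (1.3.1), and the deposited values are expected counts per gene, not normalized. Genes of near-identical sequence can share reads. Why some genes lack values in a whole model is not given in the sources used here.

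Rounded counts were analysed in R 4.3.3. Tested genes had values throughout the 13 tumors and at least 10 counts in at least 4. The test was that of edgeR 4.0.16 (TMM, quasi-likelihood F test, robust dispersions, no covariate), with Benjamini-Hochberg adjustment over 14390 genes. The procedure was tested on simulated data. The SE is the log2 fold change divided by the square root of F, and log2 CPM used a prior count of 2. Levels per kb used the median length of protein-coding transcripts (GENCODE vM21), which also gave GC content. The GC trend of each library was fitted by lowess (span 0.3) and entered as an offset. Tumors of a model were replicates, and p-values of Tp-BCC measure the spread of 1 line. No pair of libraries agreed within sampling noise. DESeq2 1.42.0, other filters and scalings and leaving out tumors were the alternatives.

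The network genes and all lists were chosen with earlier results of these data known. From each list the text names the 2 highest and 2 lowest log2 fold changes among genes that passed, or, where none passed, the 2 of highest mean log2 CPM. It also names the 3 genes most correlated with Myc, Mycn, Mxd1 and Mxd3. Some genes that the rule names are not reported here. Genes outside this rule were chosen after their values were seen.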

Additional observations from a re-analysis of the deposited data

Results flagged for a closer look

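In each model the highest and the lowest tumor were compared with their nearest neighbour by Dixon's ratio, for each of the 10 network genes. Of 20 groups, 2 held a tumor that stood apart, and chance gives about 1 in 20. Mxi1 had a log2 CPM of 6.93 in GEM2, with the next GEM-BCC tumor at 6.22. Mnt had a log2 CPM of 4.83 in GEM3, with the next GEM-BCC tumor at 5.68. Both tumors came from the same mouse. Without GEM2 the log2 fold change of Mxi1 was -0.08 and did not pass.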

How the results depend on the processing

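Tests rest on 4 Tp-BCC tumors of 1 line, sequenced in their own batch and to a lower depth than GEM-BCC. Myc and Mxd1 kept their direction and stayed past the threshold in 25 of 26 alternatives each, and Mxd3 in 22, while Mycl passed in 3 and Mycn in 2. The exceptions for Myc and Mxd1 were fits with the tumor number as a replicate block (Myc log2 1.70, adjusted p = 0.144 by edgeR), in which none of the network genes (0) and 178 of all genes passed, while 2 differentiation genes did. The number does not pair the samples: once the gene means of each model were subtracted, same-numbered tumors had correlations of -0.381 to -0.101. With that replicate block the counts were 0 for cofactors, turnover, all 3 target lists, repressed genes and proliferation. Over all genes, 2792 passed in the fit reported, 3743 by DESeq2, 4113 with the GC trend removed, 6119 without TP1 and TP3 and 1484 without TP2 and TP4. The last 2 settings were chosen after seeing the data, and the cause of the changes was not tested.

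With 1 tumor left out, there were 1 to 4 cofactors, 0 to 1 corepressors, 2 to 5 turnover genes (5 without TP3), 5 to 10 ribosome biogenesis, 1 to 5 metabolic and 3 to 7 growth targets, and 0 to 1 Mlx and Mondo targets (1 without GEM3). DESeq2 gave 2 corepressors and 1 Mlx target. Removal of the trend with transcript length gave 1 corepressor, 5 turnover genes and 2 Mlx targets. Removal of the GC trend gave 8 metabolic and 9 growth targets. Counts per mouse gave 6 ribosome biogenesis targets, and a filter of 10 counts in 10 tumors 3 differentiation genes. Without TP1 and TP3 there were 1 further partner (Mga), 5 corepressors, 10 turnover genes, 18 ribosome biogenesis, 14 metabolic and 8 growth targets, and 4 Mlx targets. Without TP2 and TP4 there were 1 cofactor, 3 ribosome biogenesis targets, 2 differentiation genes and 11 proliferation genes.

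Directions turned only for genes that had not passed. Max was 0.039 with the GC trend removed. Mnt ranged from -0.22 to 0.15 with 1 tumor left out, and was 0.13 with the replicate block, 0.17 with the length trend removed and 0.37 without TP1 and TP3. Without TP2 and TP4, Mxd4 was -0.23, Mga 0.26, Mlxip -0.16, Fasn -0.24 and Txnip 0.056. Mlxip ranged from -0.0046 to 0.28 and Txnip from -0.13 to 0.10 with 1 tumor left out. Txnip was 0.056 with the replicate block, 0.25 with the GC trend removed and 0.068 with the length trend removed.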
